A study of Mus musculus with 18 samples.

Results

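Gene expression in the left ventricle of mice was compared, over all genes, between mice killed 72 h and mice killed 6 h after a tie was placed on the left anterior descending (LAD) artery of the heart. The comparison took the 3 libraries labelled 72 h and the 3 labelled 6 h, which are 6 of the 18 libraries of the series, and 16311 of the 30583 genes in the count table had enough counts to be tested. Every mouse was a C57BL/6JR male aged 12 weeks, the labels name no transgene or drug treatment, and mice of both groups were operated under sodium pentobarbital and killed under isoflurane. No release of the tie is described, each mouse gave 1 library, and the mice at 72 h were not the mice at 6 h. The other groups of 3 mice were sham-operated animals (0 h, suture passed but not tied) and animals 10 min, 1 h and 24 h after ligation, and their values are given here as levels for reference. Per the labels, RNA came from the infarcted myocardium of the left ventricle, and the cell type is given as cardiomyocytes. No separation of cells is described, and genes that define endothelial cells (Pecam1, mean 368 CPM at 6 h, where CPM is counts per M (mega) of the scaled library), fibroblasts (Dcn, 431) and macrophages (Csf1r, 30.4) were read beside Myh6 (21515), the main myosin heavy chain of adult mouse heart muscle. The libraries are therefore described as tissue.

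When a coronary artery is closed, heart muscle cells downstream of it die within hours. Neutrophils enter the dying tissue early, drawn by chemokines, and monocytes follow, become macrophages and clear the dead cells. Fibroblasts then divide and lay down a collagen scar, while surviving heart muscle, which normally burns fatty acids in densely packed mitochondria, does not replace what was lost.

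The 6 libraries held 20.3 to 23.7 M counts. Mitochondrially encoded genes took 22.8% to 27.3% of the counts at 6 h and 8.41% to 10.5% at 72 h, and the scaling factors of edgeR's TMM method, which sets libraries to a common level by genes of middling change, were 0.825 to 0.887 at 6 h and 1.36 to 1.43 at 72 h. Measured over the 500 genes that varied most, in log2 CPM, libraries of 1 time lay 9.68 to 25.9 apart and libraries of different times 93.7 to 102 apart. Replicate 1 at 6 h stood apart from its group. It held more atrial RNA than the other libraries of both times: Myl7, an atrial myosin light chain, was at 49.3, 0.0478 and 0 CPM in replicates 1 to 3 at 6 h, and the summed level of 4 atrial markers was 172 CPM there against a lowest value of 1.60 CPM at 6 h and 2.16 to 3.41 CPM at 72 h. For part of the results below, calls and list medians without this library are given as well.

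Of the 16311 genes tested, 10272 (63.0%) were called, meaning an edgeR quasi-likelihood p under 0.05 after Benjamini-Hochberg adjustment over all genes tested. Of these, 5111 genes (31.3% of those tested) were higher at 72 h and 5161 (31.6%) were lower. In 10857 of the genes tested (66.6%), called or not, all 3 libraries of one time lay beyond all 3 of the other. Changes of at least 2-fold were found in 5178 genes (31.7%), 2892 higher (17.7%) and 2286 lower (14.0%). The largest changes went up: 1326 genes were at least 4-fold higher and 510 at least 4-fold lower, and 328 were at least 16-fold higher against 43 at least 16-fold lower. Genes with few counts at 1 time could be tested through the other time. The 6 h libraries held counts for 20688 to 20995 genes and the 72 h libraries for 22852 to 23361. With at least 10 counts required in every library compared, 3758 of 13543 genes changed at least 2-fold. The split by direction depends on the scaling: with library totals in place of TMM, the median over all genes moved up by 0.691 on the log2 scale, and 10087 genes were called higher against 1887 lower. Levels below are TMM-scaled CPM, changes are relative to a median gene at 0, and a direction that turns under library totals is named beside the gene. The count for each group of genes below is to be read against these shares of all genes.

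**Figure D1:**
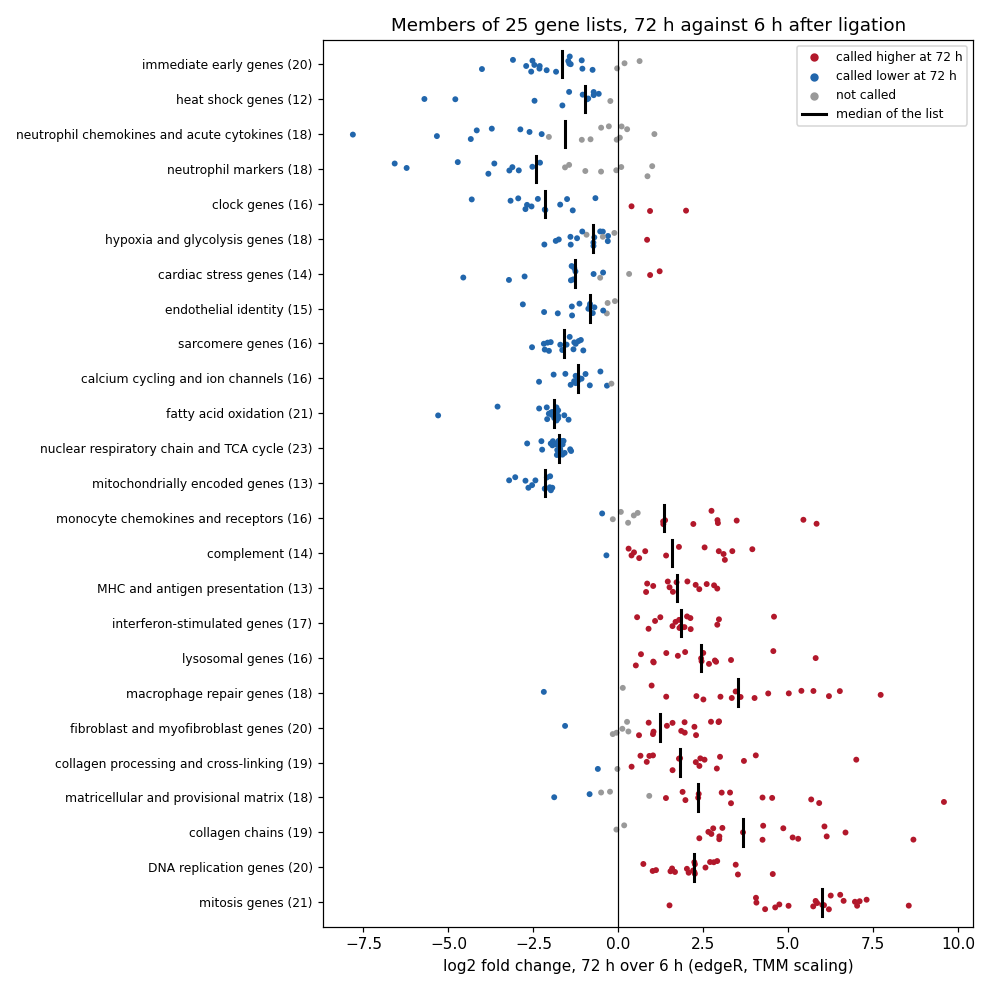
Each point is a gene, its position the log2 fold change of 72 h over 6 h in edgeR with TMM scaling, in 25 gene lists with the number of tested genes in brackets; red points were called higher, blue points called lower, grey points not called, and the black bar is the median of the list. All 21 mitosis genes lie right of 0 (median 6.00) and all 21 fatty acid oxidation genes lie left of it (median -1.89), and neither side changes with library totals.

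The acute transcripts of the first hours were lower at 72 h. Of 20 immediate early genes, mostly transcription factors switched on within minutes of a stimulus, 17 were called lower and 0 higher, with a median log2 fold change of -1.66. With library totals 12 were called lower and 3 higher, and the median was -0.955. Fos, a subunit of the AP-1 transcription factor, was at 159, 51.2 and 42.9 CPM in the 6 h libraries and 11.5, 17.4 and 14.8 CPM in the 72 h libraries. Fosb, a related AP-1 subunit, was at 54.8, 11.8 and 15.4 and at 1.8, 2.07 and 1.15 CPM. In neither gene did the times overlap, and replicate 1 was the highest library at 6 h in both. Fos fell by 2.53 on the log2 scale (SE 0.49, adjusted p = 0.000528) and Fosb by 4.02 (SE 0.60, adjusted p = 4.96e-05). At 1 h the means had been higher than at 6 h, 219 CPM for Fos and 106 CPM for Fosb, and Fos at 72 h was still above its sham mean of 1.71 CPM. The members with the smallest p were Btg2, an anti-proliferative gene (-2.32), and the transcription factors Klf4 (-1.48) and Maff (-2.47), and 3 members were not called. When 6 h replicate 1 or 72 h replicate 3 was left out, 1 immediate early gene was called higher. The same held with upper-quartile scaling, with only the 6 libraries compared, and with at least 10 counts in every library compared.

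Chemokines that draw neutrophils, and the acute cytokines, were lower or did not pass the test. Of 18 such genes 8 were called lower and 0 higher (median -1.56; 6 lower and 1 higher, median -0.856, with library totals). Cxcl1, a ligand of the neutrophil receptor CXCR2, lies at chr5:90891241-90893115 on the plus strand (GRCm38, GENCODE M21 annotation). Its level was 93.9, 53.2 and 25.7 CPM at 6 h and 2.97, 5.72 and 4.33 CPM at 72 h, 13.3-fold lower with no overlap (adjusted p = 0.000105). Cxcl5, another ligand of that receptor, went from 122, 68.9 and 62.6 to 8.33, 16.7 and 16.3 CPM. Csf2, the gene of the growth factor GM-CSF, went from 3.34, 1.34 and 1.12 to 0.0315, 0.0304 and 0.0636 CPM, the lower values resting on 1, 1 and 2 counts. The 3 genes had in common that every 72 h library was below every 6 h library. Il6, an acute cytokine, was at 45.6, 26.9 and 6.34 CPM at 6 h, a wide range within the group, and at 2.52, 4.35 and 3.75 CPM at 72 h (adjusted p = 0.00719). Il1b, the gene of interleukin 1 beta, was at 64.5, 38.8 and 11.2 and 6.94, 11.7 and 9.01 CPM and was not called (adjusted p = 0.0679), with 6 h replicate 3 lying among the 72 h values. It was called lower without that library (-2.49), with only the 6 libraries compared (-2.02) and with DESeq2 (-2.04).

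Promoters of this list were searched because the 8 genes called in it moved in 1 direction. The shares below cover windows of the whole list, called or not, and the Cxcl1 window is printed as one that holds searched letters. In the RefSeq promoter table for GRCm38.p6 (250 bases before to 50 bases after each start, both strands searched), 17 windows of 14 of the genes were found. The letters GGANTTTCC, a form of the NF-kB site, stood in 29.4% of those windows and in 1.25% of all 32851 windows. The TATA box letters TATAAA stood in 41.2% and 13.6%, and the AP-1 letters TGANTCA in 29.4% and 7.81%. No window held overlapping copies of the NF-kB letters with the TATA or AP-1 letters. The Csf2 window held none of the NF-kB, TATA or AP-1 letters searched and is not printed. In the Cxcl1 window, chr5:90890995-90891294 on the plus strand, the capitals mark the NF-kB letters, which begin 70 bases before the start:
Cxcl1: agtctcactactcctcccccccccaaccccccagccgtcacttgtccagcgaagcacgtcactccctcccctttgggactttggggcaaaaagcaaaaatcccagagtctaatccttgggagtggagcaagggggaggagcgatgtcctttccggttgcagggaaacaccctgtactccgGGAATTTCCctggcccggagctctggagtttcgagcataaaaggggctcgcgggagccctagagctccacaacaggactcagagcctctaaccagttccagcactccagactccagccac
These matches describe the sequence only, and binding was not measured.

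Neutrophil markers were lower at 72 h in part. Of 18 markers 10 were called lower and 0 higher, with a median of -2.42 (8 lower and 1 higher, median -1.70, with library totals, and 6 lower and 2 higher, median -0.948, with limma on log2(FPKM + 1)). Their summed level ran from 331 to 1227 CPM at 6 h and from 139 to 167 CPM at 72 h. Lcn2, the gene of an iron-withholding granule protein, was at 175, 164 and 168 CPM at 6 h and 7.13, 6.76 and 5.25 CPM at 72 h (26.5-fold lower, adjusted p = 1.56e-07). S100a8, which encodes a subunit of calprotectin, was at 249.7, 97 and 30.5 and 8.52, 11.2 and 10.3 CPM. Retnlg, found mainly in neutrophils of blood and marrow, was at 43, 16 and 5.91 and 0.126, 0.244 and 0.477 CPM. The 6 h libraries of Lcn2 were nearly equal, whereas those of S100a8 and Retnlg spread widely, with replicate 1 highest. Mmp9, at 15, 8.56 and 4.21 and 14.1, 23 and 17.8 CPM, and the receptor gene Csf3r, at 44.2, 12.6 and 13.9 and 22.8, 22.5 and 29.2 CPM, overlapped between the times and were not called, though Mmp9 was called higher with library totals (1.70). Without replicate 1 at 6 h, 6 markers were called lower and the median was -1.27. In tissue libraries, fewer cells of a type and less RNA per cell cannot be told apart, here and below.

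Feedback genes of the NF-kB pathway split. Of 15 genes 8 were called lower and 1 higher (median -0.378), while with library totals 4 were lower and 6 higher and the median turned to 0.321. Socs3, an inhibitor of cytokine signalling, was at 360.3, 155 and 119 CPM at 6 h and 41.1, 47.6 and 45.4 CPM at 72 h. Zfp36, whose product destabilises cytokine mRNAs, was at 221, 90 and 102 and 31.1, 30.3 and 31.4 CPM. Both were lower in every 72 h library, at adjusted p of 0.0034 and 6.75e-05. Nfkbie, an inhibitor of NF-kB, moved the other way, from 4.83, 2.82 and 3.04 to 11.1, 13.1 and 10.2 CPM (log2 fold change 1.69, adjusted p = 9.57e-05). Without replicate 1 at 6 h, 5 of the 15 were called lower and 2 higher, and without replicate 3 at 72 h 5 were called lower.

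Heat shock genes were lower too, 11 of 12 called and 0 higher (median -0.986; 6 lower and 0 higher with library totals). Hspa1a, an inducible Hsp70 gene, was at 398, 141 and 97.9 CPM at 6 h and 4.95, 3.84 and 3.37 CPM at 72 h, and its neighbour Hspa1b at 454, 165 and 94.9 and 7.63, 8.59 and 9.42 CPM. These copies are nearly identical, so how their reads were divided between them is uncertain. Hspb1, a small heat shock gene of muscle, was at 1946, 757 and 1467 and 233, 277 and 243 CPM (adjusted p = 2.72e-07). At 72 h the level of Hspa1a was close to its sham mean of 3.05 CPM.

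**Figure D2:**
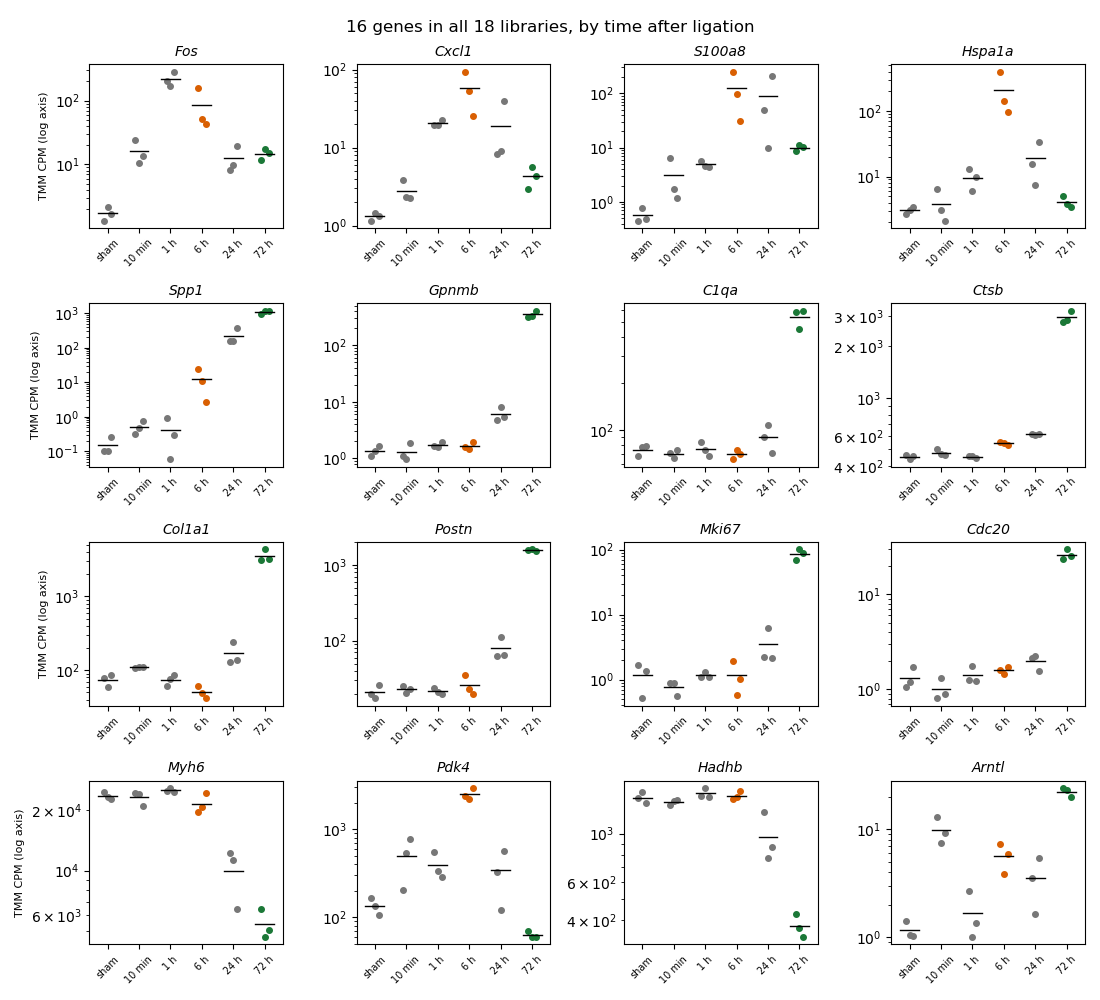
Level of 16 genes in all 18 libraries, in TMM-scaled CPM on log axes, by group; points are single mice, orange at 6 h and green at 72 h, and bars are means of 3. Fos, Cxcl1, S100a8, Hspa1a and Pdk4 were lower in every 72 h library than in any 6 h library, whereas Gpnmb, Col1a1, Mki67 and Cdc20 were higher in every 72 h library than in any library of the other groups.

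Transcripts of macrophages took the opposite course. Of 18 macrophage repair genes 16 were called higher and 1 lower (median 3.52, 4.22 with library totals). Gpnmb, a membrane glycoprotein gene of phagocytes, lies at chr6:49036546-49070929 on the plus strand. It was at 1.61, 1.48 and 1.97 CPM at 6 h and 322, 329.7 and 413 CPM at 72 h, 210.0-fold higher (log2 fold change 7.71, SE 0.23, adjusted p = 1.96e-13), with no overlap. At 24 h its mean was 6.13 CPM. Spp1, the gene of osteopontin, was at 23.7, 10.6 and 2.72 CPM at 6 h, with replicate 1 highest, and at 958, 1198 and 1201 CPM at 72 h. Trem2, a lipid-sensing receptor, was at 3.34, 2.82 and 2.77 and 157, 138 and 180.3 CPM. Adgre1, which encodes the macrophage antigen F4/80, was 21.1-fold higher and the protease gene Ctsk 10.1-fold higher. Arg1, the arginase of wound macrophages, was at 15.2, 10.5 and 1.92 CPM at 6 h and 86.6, 111 and 103 CPM at 72 h, below its 24 h mean of 265 CPM. The member called lower was Lpl, at 6199, 5289.7 and 7439 and 1517, 1295 and 1323 CPM, which encodes lipoprotein lipase and is made by heart muscle as well as by macrophages.

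Resident macrophage genes showed both directions, 5 of 9 higher and 2 lower (median 0.906; 7 and 1 with library totals). Mrc1, the mannose receptor, rose from 42.1, 55.9 and 38.8 to 134, 143 and 126 CPM and Folr2 was 5.15-fold higher. Lyve1, a hyaluronan receptor of resident macrophages that lymphatic vessels also carry, fell from 48.5, 52.4 and 39.9 to 18.7, 9.38 and 11.4 CPM (adjusted p = 6.38e-05). Timd4, used to mark resident macrophages, had a mean of 0.568 CPM at 6 h and 0.753 CPM at 72 h and was not called (called higher with library totals, 1.06), and both means were below its sham mean of 1.78 CPM. Among 16 genes of dead-cell uptake and resolution, 9 were higher and 3 lower (median 0.702; 12 and 2 with library totals), with the scavenger receptor Stab1 6.76-fold, the uptake receptor Tyro3 5.48-fold and the annexin Anxa1 5.65-fold higher. Cd36, a fatty acid transporter that heart muscle and capillaries also express, was lower, at 1882, 1988 and 2155 and 585, 593 and 504 CPM.

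Among 16 monocyte chemokines and their receptors, 10 were called higher and 1 lower (median 1.35). Ccr2, the receptor that brings monocytes from the blood, was at 11.3, 9.62 and 6.07 CPM at 6 h and 92.3, 118 and 90.7 CPM at 72 h. Its ligand gene Ccl2 was at 62.7, 43.3 and 36.1 and 44.1, 87.8 and 41 CPM, overlapped between the times and was not called. Cxcl16 rose 7.61-fold, Ccl8 57.5-fold and Csf1r, the receptor for the macrophage growth factor, 6.66-fold. Csf1, that growth factor, was lower by 0.48 on the log2 scale (adjusted p = 0.0298), a direction that turned with library totals. The call was lost when 6 h replicate 1, 72 h replicate 1 or 72 h replicate 3 was left out. It was also lost with upper-quartile scaling (-0.385) and with no filter on low counts (-0.451).

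The machinery of digestion and presentation was higher as a group. All 16 lysosomal genes were called higher (median 2.44). Ctsb, the gene of cathepsin B, was at 555, 545 and 527 CPM at 6 h and 2788, 2842 and 3237 CPM at 72 h, 5.45-fold higher (adjusted p = 9.07e-13). Gusb, beta-glucuronidase, was 7.33-fold and Grn, progranulin, 6.34-fold higher, and Ctss, the cathepsin that trims the invariant chain in antigen-presenting cells, rose from 30.9, 25.3 and 17.5 to 541, 530.2 and 663 CPM. The times did not overlap in any of these genes, and the libraries of each time lay closest together in Ctsb. In the complement list 13 of 14 genes were higher and 1 lower (median 1.59), led by the C1q chains C1qa (7.74-fold), C1qb (8.53-fold) and C1qc (8.76-fold). With library totals, or when 6 h replicate 1 or 72 h replicate 3 was left out, 0 members were lower.

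All 13 genes of MHC and antigen presentation were called higher (median 1.71). H2-Ab1, a class II chain, was at 48.5, 37 and 39 CPM at 6 h and 234, 191 and 222 CPM at 72 h, H2-Aa was 4.83-fold and Cd74, the invariant chain, 3.27-fold higher. Genes of the H2 family resemble each other, so the division of reads among them is uncertain. All 17 interferon-stimulated genes were called higher as well (median 1.84). Mx1, an antiviral GTPase, was at 0.536, 0.718 and 0.373 CPM and 14, 13.4 and 12.1 CPM, Oas1a was 7.42-fold and Ifit2 3.57-fold higher. At 6 h the means of these 3 genes, 0.542, 3.1 and 13 CPM, were below their sham means of 0.606, 3.61 and 20.2 CPM.

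Markers of other blood and heart cells moved in both directions. Of 10 markers of T cells and NK cells 5 were abundant enough to test and 4 were called higher, with a summed level of 2.98 to 4.35 CPM at 6 h and 7.44 to 11.6 CPM at 72 h (2 called without replicate 3 at 72 h). Among 6 B cell markers Ighm and Cd79b were higher, and Ms4a1 was not called with all libraries but was called higher without 6 h replicate 1 (1.56), which moved the list's median from 0.567 to 1.03. Of 8 dendritic cell markers 5 were higher, among them Flt3 (7.37-fold), Cd209a (5.81-fold) and Fscn1 (3.02-fold), of which Fscn1 is also made by other cells. With at least 10 counts required in every library compared, 2 were called higher and the median was 1.16, against 1.97. None of 5 mast cell markers tested was called in edgeR with TMM scaling in either direction (0 at an unadjusted p under 0.05, 0 with DESeq2). However, 2 were called higher with library totals and 3 with limma on log2(FPKM + 1). All 5 red blood cell markers were lower (median -1.83, summed 694 to 1448 CPM at 6 h and 228 to 346 CPM at 72 h), and the globin genes among them resemble each other, so the division of their reads is uncertain. Of 6 epicardial and mesothelial markers 5 were higher, with Upk1b at 3.11 and Krt19 at 2.35 on the log2 scale, and Wt1 was lower. Their number called higher was 3 when 6 h replicate 1, 6 h replicate 3 or 72 h replicate 1 was left out. It was 2 (median 0.908, against 1.99) with at least 10 counts required in every library compared. Of 3 Schwann cell markers tested Mbp was higher and Sox10 lower (2 lower when 6 h replicate 2 or 72 h replicate 3 was left out, 0 lower when 6 h replicate 3 was). Of 3 skeletal muscle markers tested Tnnt3 was higher, and 2 were called higher when 6 h replicate 1 or 72 h replicate 2 was left out, with Mylpf also called lower (-0.923) without 6 h replicate 1. Under the filter of at least 10 counts in every library compared, 0 skeletal muscle markers were called higher. The adipocyte marker tested, Cfd, was lower (adjusted p = 0.00646), but not without replicate 2 at 6 h. The atrial markers Myl7 and Myl4 were called lower with replicate 1 at 6 h, and without it their log2 fold changes were 4.21 and 0.189. What part these cell markers have in other results was not tested.

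Transcripts of dividing cells were higher at 72 h. All 21 mitosis genes were called higher, with a median log2 fold change of 6.00 and a range from 1.5 to 8.54. The size depends on how low counts are treated: the median was 6.69 with library totals, 5.48 with limma on log2(FPKM + 0.1) and 3.01 with limma on log2(FPKM + 1). Only 6 of the 21 had at least 10 counts in every library compared (all 6 called higher, median 4.24), and the others, with fewer than 10 counts in at least 1 library at 6 h, were abundant enough to test through their 72 h counts. Their summed level was 17.2 to 18.1 CPM at 6 h and 497 to 685 CPM at 72 h, against a sham mean of 23.1 CPM. Cdc20, an activator of the anaphase-promoting complex, lies at chr4:118432901-118437352 on the minus strand. It was at 1.61, 1.44 and 1.7 CPM at 6 h and at 23.7, 29.8 and 25 CPM at 72 h, 16.5-fold higher (SE 0.21 on the log2 scale, adjusted p = 2.58e-11). Bub1b, a spindle checkpoint kinase gene, was at 1.19, 0.622 and 0.852 and 20.1, 28 and 22.2 CPM. Tpx2, a spindle assembly factor, was at 0.775, 0.861 and 0.479 and 34.6, 45.8 and 38.8 CPM. All 3 were low in each 6 h library and high in each 72 h library. Mki67, the gene of the proliferation marker Ki-67, was at 1.91, 0.574 and 1.01 CPM and 69.7, 101 and 87.7 CPM, 74-fold higher. Its mean at 24 h was 3.5 CPM. Ccnb1, cyclin B1, had 1, 1 and 1 counts in the 6 h libraries and 587, 865 and 655 counts in the 72 h libraries, so no fold is given. The smallest change was in Cenpf, a kinetochore gene (a log2 fold change of 1.5), whose sham mean of 12.3 CPM was above its 6 h mean of 7 CPM.

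DNA replication genes changed together but less. All 20 were called higher (median 2.23, range 0.733 to 4.54). Mcm5, a subunit of the replicative helicase, was at 2.98, 4.31 and 3.52 CPM at 6 h and 37.6, 46.7 and 34.5 CPM at 72 h, 11-fold higher (adjusted p = 1.48e-09). Mcm2, another subunit, was at 6.73, 7.66 and 7.94 and 30.8, 42.4 and 33 CPM, and Gins2, of the same helicase complex, at 0.119, 0.718 and 0.586 and 10.4, 12.3 and 11.8 CPM. Among 17 genes of G1 cyclins, their kinases and inhibitors, 10 were higher and 2 lower (median 1.18; 15 and 2 with library totals). Over the members with at least 10 counts in every library compared, the median was 0.304. E2f1, an S phase factor, rose from 0.536, 0.383 and 1.22 to 13.2, 17 and 15.8 CPM, and Cdk4 and Cdk6 were 2.26-fold and 2.58-fold higher. Cyclin D1 (Ccnd1) was at 56.4, 47.6 and 39.6 and 56.6, 64.8 and 49.4 CPM and was not called, but was called higher with library totals (0.948) and in the 3 limma fits (0.876 to 0.943). The inhibitor genes Cdkn1a, at 441, 223 and 323 and 78.7, 84.8 and 72.5 CPM, and Cdkn1c, at 21.7, 25.5 and 20 and 7.98, 5.3 and 8.85 CPM, were lower in every 72 h library, with adjusted p of 0.00311 and 8.25e-05. The cells in which these genes were transcribed cannot be read from tissue libraries.

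Promoters of the mitosis and replication genes are shown because both lists moved in 1 direction and differ in the letters they hold. The table held 18 windows of 17 mitosis genes and 18 windows of 17 replication genes. TTTGAA, the core of the cell cycle homology region (CHR), stood in 72.2% of the mitosis windows, 11.1% of the replication windows and 17.9% of all windows. GCGGGAA, a form of the E2F site, stood in 55.6% of the replication windows, 0% of the mitosis windows and 4.60% of all. CCAAT stood in 88.9%, 77.8% and 37.4%, in the same order of mitosis, replication and all. The CHR and CCAAT letters shared bases in 0.143% of all windows. In the Cdc20 window, chr4:118437294-118437593 on the minus strand, the capitals mark CHR letters that begin 18 bases before the start and CCAAT letters that begin 53 and 8 bases before it. In the Bub1b window, chr2:118597961-118598260 on the plus strand, they mark the CCAAT letters on the opposite strand, 113 bases before the start, and CHR letters 40 bases past it. The Mcm3 window, chr1:20820263-20820562 on the minus strand, was chosen after the matches were seen, as a replication gene that holds the E2F letters, and its capitals mark those letters, 19 bases past the start, and 3 copies of CCAAT, the first of them on the opposite strand:
Cdc20: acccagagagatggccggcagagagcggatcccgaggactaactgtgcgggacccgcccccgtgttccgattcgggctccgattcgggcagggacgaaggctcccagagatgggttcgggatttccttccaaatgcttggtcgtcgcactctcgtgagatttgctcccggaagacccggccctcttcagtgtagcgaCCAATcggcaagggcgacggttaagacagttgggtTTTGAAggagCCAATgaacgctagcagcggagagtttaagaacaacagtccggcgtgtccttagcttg
Bub1b: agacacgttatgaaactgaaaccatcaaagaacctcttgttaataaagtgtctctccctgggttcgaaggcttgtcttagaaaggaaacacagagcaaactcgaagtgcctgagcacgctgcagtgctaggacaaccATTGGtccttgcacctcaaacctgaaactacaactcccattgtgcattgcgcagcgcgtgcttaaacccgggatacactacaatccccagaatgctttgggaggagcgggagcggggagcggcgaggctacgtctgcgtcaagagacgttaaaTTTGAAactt
Mcm3: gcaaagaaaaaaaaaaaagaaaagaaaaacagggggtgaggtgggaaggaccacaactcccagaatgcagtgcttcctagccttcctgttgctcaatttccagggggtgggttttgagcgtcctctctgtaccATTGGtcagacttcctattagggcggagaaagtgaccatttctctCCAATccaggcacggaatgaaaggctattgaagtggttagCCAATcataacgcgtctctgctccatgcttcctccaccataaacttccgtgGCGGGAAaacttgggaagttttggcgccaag
Mcm3, a helicase subunit, was at 10.1, 8.9 and 7.4 CPM at 6 h and 33.3, 49 and 38.7 CPM at 72 h, about 4.58-fold higher, and Cdc20 and Bub1b have the values above. The windows of Mcm2 and Mcm5 hold CCAAT and not the E2F letters searched, which says nothing about the factor.

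**Figure D3:**
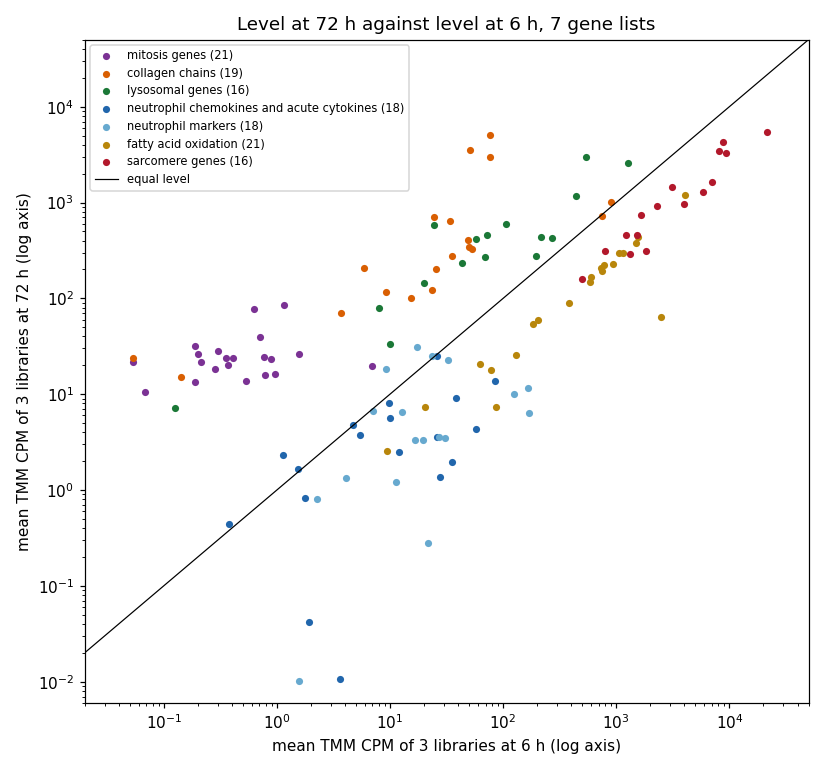
Mean level at 72 h against mean level at 6 h, in TMM-scaled CPM on 2 log axes, for the tested members of 7 lists; the line marks equal levels. All 21 mitosis genes lie above the line and 17 of the 19 collagen genes were called above it. The median 6 h level was 0.409 CPM in the mitosis list and 33.6 CPM in the collagen list. The 16 sarcomere genes and 21 fatty acid oxidation genes lie below the line.

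Collagen genes formed the other large increase. Of 19 collagen chain genes 17 were called higher and 0 lower (median 3.66, 4.37 with library totals). Over the members with at least 10 counts in every library compared the median was 3.11. With limma on log2(FPKM + 1) it was 3.26. The summed level of the collagen chain genes went from 1859 to 2664 CPM at 6 h to 14786 to 20304 CPM at 72 h. Col1a1, a chain of type I collagen, lies at chr11:94936224-94953042 on the plus strand. It was at 60.7, 49.7 and 42 CPM at 6 h and 3066, 4349 and 3233 CPM at 72 h, 69.8-fold higher (adjusted p = 8.21e-12). Col3a1, of type III collagen, was at 86.7, 84.2 and 56.8 and 4451, 5803 and 4945 CPM. In all 6 h libraries both genes were below their sham means of 74.4 CPM for Col1a1 and 135 CPM for Col3a1, and neither overlapped between the times. Col5a1 and Col5a2, of the type V collagen that nucleates fibrils, were 28.8-fold and 18.9-fold higher. Col11a1 had 0, 0 and 3 counts at 6 h and 386, 911 and 1016 counts at 72 h. The exceptions were Col4a1 and Col4a2 of basement membranes, not called at log2 fold changes of 0.17 (adjusted p = 0.478) and -0.06 (adjusted p = 0.796). With library totals all 19 chains were called higher, Col4a1 at 0.871 and Col4a2 turned to 0.639. Col4a1 was at 1137, 719.6 and 831 CPM at 6 h, already above its sham mean of 376 CPM, and at 892, 1302 and 829 CPM at 72 h.

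The enzymes that process collagen were mostly higher too. Of 19 genes 17 were called higher and 1 lower (median 1.81). P4ha3, a prolyl hydroxylase subunit, was at 0.417, 0.144 and 0.16 CPM at 6 h and 26.9, 32.7 and 31.3 CPM at 72 h. Adamts2, which removes the N-terminal propeptide of procollagen, was at 28.7, 29.7 and 26.4 and 198, 227 and 206 CPM, and the lysyl oxidase genes Lox and Loxl3, whose products cross-link fibres, rose 7.93-fold and 16.4-fold. Each of these 4 genes was higher in every 72 h library. Tgm2, a transglutaminase also made by endothelial cells, was lower by 0.61 on the log2 scale (adjusted p = 0.00128), a direction that turned with library totals.

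Matricellular and provisional matrix genes were mostly higher, 13 of 18, with 2 lower (median 2.35). Postn, periostin, a product of activated fibroblasts, was at 35.8, 22.9 and 19.8 CPM at 6 h and 1577, 1603 and 1516 CPM at 72 h, 59.8-fold higher (adjusted p = 1.96e-11). Cthrc1, a secreted protein gene of activated fibroblasts, was at 0.179, 0.191 and 0.107 CPM, from 3, 4 and 2 counts, and at 116, 135 and 127 CPM. Fibronectin (Fn1) was at 111, 68.8 and 56.2 and 1279.7, 1896 and 1283 CPM. The 72 h libraries of Postn lay close together, and all 3 genes were apart between the times. Ccn1, a growth factor-induced matrix protein, went the other way, from 516, 156 and 341 to 79.4, 106 and 88.1 CPM (log2 fold change -1.89, adjusted p = 0.000652). Ccn2, a related matrix protein, was also called lower, but its times overlapped, at 612, 208 and 513 and 226, 285 and 229 CPM, and its call was lost with library totals and without replicate 1 or 3 at 6 h or replicate 1 or 3 at 72 h.

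Proteases and their inhibitors split by member, with 10 of 18 higher and 6 lower (median 0.473). Adam12 rose 13.2-fold, Mmp14, a membrane-bound collagenase, 7.7-fold, and Mmp2, a gelatinase, 2.36-fold. Among the tissue inhibitors of metalloproteinases, Timp1 rose from 61.4, 41.4 and 41.9 to 175, 251 and 155 CPM, whereas Timp3 fell from 501, 409 and 395 to 69.3, 78.6 and 52.9 CPM and Timp4, which heart muscle makes, from 114, 119 and 157 to 6.94, 4.17 and 5.44 CPM. No library of one time crossed into the other in these 3 inhibitor genes. Of 20 fibroblast and myofibroblast genes 14 were higher and 1 lower (median 1.23), with Lum 7.78-fold, Tgfb3 6.6-fold, Fap 7.69-fold and the smooth muscle actin gene Acta2 3.01-fold higher. Dcn and Pdgfra, genes of fibroblasts at rest as well, had log2 fold changes of 0.25 (not called, adjusted p = 0.0949) and 0.61 (adjusted p = 0.000735). Dcn was called higher with library totals (0.946), with upper-quartile scaling (0.348) and in the 3 limma fits (0.934 to 0.944). The same held with at least 10 counts in every library compared (0.307) and without 72 h replicate 2 (0.339). Gsn, an actin-severing protein of many cell types, was lower, at 1687, 1365 and 1441 and 697, 370.2 and 446 CPM, and without replicate 2 at 6 h 2 members of the list were lower.

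Vessel genes were lower or mixed. Of 15 endothelial identity genes 12 were called lower and 0 higher (median -0.842), but with library totals 6 were lower and 2 higher (median -0.142). Flt1, a VEGF receptor, was at 399, 337 and 306 CPM at 6 h and 79, 88.6 and 61.3 CPM at 72 h, and Aqp1, a capillary water channel, was at 1069.9, 919 and 899.5 and 169, 119 and 123 CPM. These genes were below all 6 h libraries in every 72 h library, by 4.55-fold and 7.02-fold. Pecam1 was lower by 0.84 on the log2 scale (adjusted p = 9.11e-06; the call was lost with library totals), and at 205 CPM its 72 h mean was near the sham mean of 229.5 CPM. Among 14 genes of endothelial activation and sprouting, 5 were higher and 7 lower (median -0.733), or 6 and 5 with library totals (median -0.0276). The selectin gene Sele and the growth factor gene Pgf were 6.64-fold and 7.83-fold lower, the notch ligand Dll4 2.56-fold lower, and Plvap, of fenestrated endothelium, 4.47-fold higher. Of 12 pericyte and smooth muscle genes 7 were lower and 1 higher, with a median of -0.511, while with library totals 2 were lower and 4 higher and the median turned to 0.181. The potassium channel genes Kcnj8 and Abcc9 of this list were 2.65-fold and 3.31-fold lower. Without replicate 1 at 72 h 2 of these 12 were higher.

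The contractile genes of heart muscle were lower without exception among the members tested. All 16 sarcomere genes were called lower (median -1.59; with library totals 15 were called, all lower). Myh6 was at 19626, 20710.2 and 24211 CPM at 6 h and 6433, 4696 and 5099 CPM at 72 h, 3.98-fold lower (log2 fold change -1.99, SE 0.19, adjusted p = 5.79e-08). Actn2, the alpha-actinin of the Z-disc, was at 1549, 1323 and 1678 and 521, 409 and 460.2 CPM. Myl2 and Tnni3, the ventricular light chain and the cardiac troponin I, were 4.24-fold and 4.13-fold lower. The 6 h means of Myh6 and Actn2 were near those in sham (23507 and 1348 CPM), and the times did not overlap. Of 16 genes of calcium cycling and ion channels 15 were called lower and 0 higher (median -1.20; 9 lower and 2 higher with library totals), among them Atp2a2, the calcium pump of the sarcoplasmic reticulum, at 10093, 11595 and 9508 and 3173, 2628 and 2520.1 CPM, and Hrc, a calcium-binding protein of that store (5.05-fold lower). The member not called was the exchanger gene Slc8a1, at a log2 fold change of -0.21 that turned to 0.489 with library totals.

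Cardiac stress genes divided. Of 14 genes 10 were called lower and 2 higher (median -1.28; 7 and 3 with library totals). Ankrd2, a stretch-responsive titin partner, was at 36.1, 12.2 and 42.6 CPM at 6 h and 1.42, 1.22 and 1.18 CPM at 72 h, and the filamin gene Flnc at 2668, 781 and 1543 and 235, 276 and 225 CPM. Xirp1, of the intercalated disc, was 9.32-fold lower. In Ankrd2 and Flnc replicate 2 was the lowest 6 h library, and still above every 72 h library. The natriuretic peptide genes parted: Nppa, which encodes ANP, was at 391, 112 and 285 CPM at 6 h and 569, 608 and 646 CPM at 72 h (log2 fold change 1.21, adjusted p = 0.00826), and Nppb, which encodes BNP, at 2456, 727 and 1887 and 625, 730.3 and 664 CPM (-1.33, adjusted p = 0.00255). Nppa did not overlap between the times, while Nppb did, through replicate 2 at 6 h, and its call was lost with library totals. Both were above their sham means of 145 and 229 CPM at 72 h.

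Genes of mitochondrial energy supply were lower throughout the lists examined. All 21 fatty acid oxidation genes were called lower, with a median of -1.89 (-1.20 with library totals, all 21 still called lower). Hadhb, a subunit of the trifunctional protein that runs the last steps of each oxidation cycle, was at 1438, 1480.0 and 1569.8 CPM at 6 h and 427, 368 and 336 CPM at 72 h, 3.97-fold lower (adjusted p = 2.44e-09). Acaa2, a thiolase, was 4.13-fold and Acadm, the medium-chain dehydrogenase, 3.9-fold lower. Most members lay within a narrow band near the median, and Pdk4, the kinase that holds back glucose oxidation, stood outside it. Pdk4 was at 2370.2, 2210.3 and 2949.9 CPM at 6 h and 70.1, 60 and 60.5 CPM at 72 h (39.5-fold lower, adjusted p = 2.95e-06), and its sham mean was 135 CPM. All 23 nuclear genes of the respiratory chain and the TCA cycle were called lower (median -1.76), Cox7a1, the heart form of a cytochrome oxidase subunit, from 1019, 1223 and 1271 to 247, 147 and 152 CPM. All 13 mitochondrially encoded genes were called lower (median -2.17), mt-Co1, a catalytic subunit of cytochrome oxidase, from 141517, 116957 and 97539.7 to 32681, 31027 and 24751 CPM. The transcript mt-Nd6 was 4.31-fold lower, though it is read from the other strand than its neighbours, and use of strand in the counting is not given in the sources used here.

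Among 18 genes of hypoxia and glycolysis 14 were lower and 1 higher (median -0.735), whereas with library totals 5 were called in each direction. Slc2a1, the glucose transporter GLUT1, was at 168, 97.5 and 84.5 CPM at 6 h and 31.6, 38.8 and 27 CPM at 72 h, above its sham mean of 17.7 CPM at both times. Hk2, a hexokinase of muscle, was 2.66-fold lower and Bnip3, a hypoxia-induced mitophagy receptor, 3.38-fold lower. Eno1, an enolase, moved the other way, from 214, 192 and 199 to 343, 389 and 353 CPM (adjusted p = 0.0038).

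**Figure D4:**
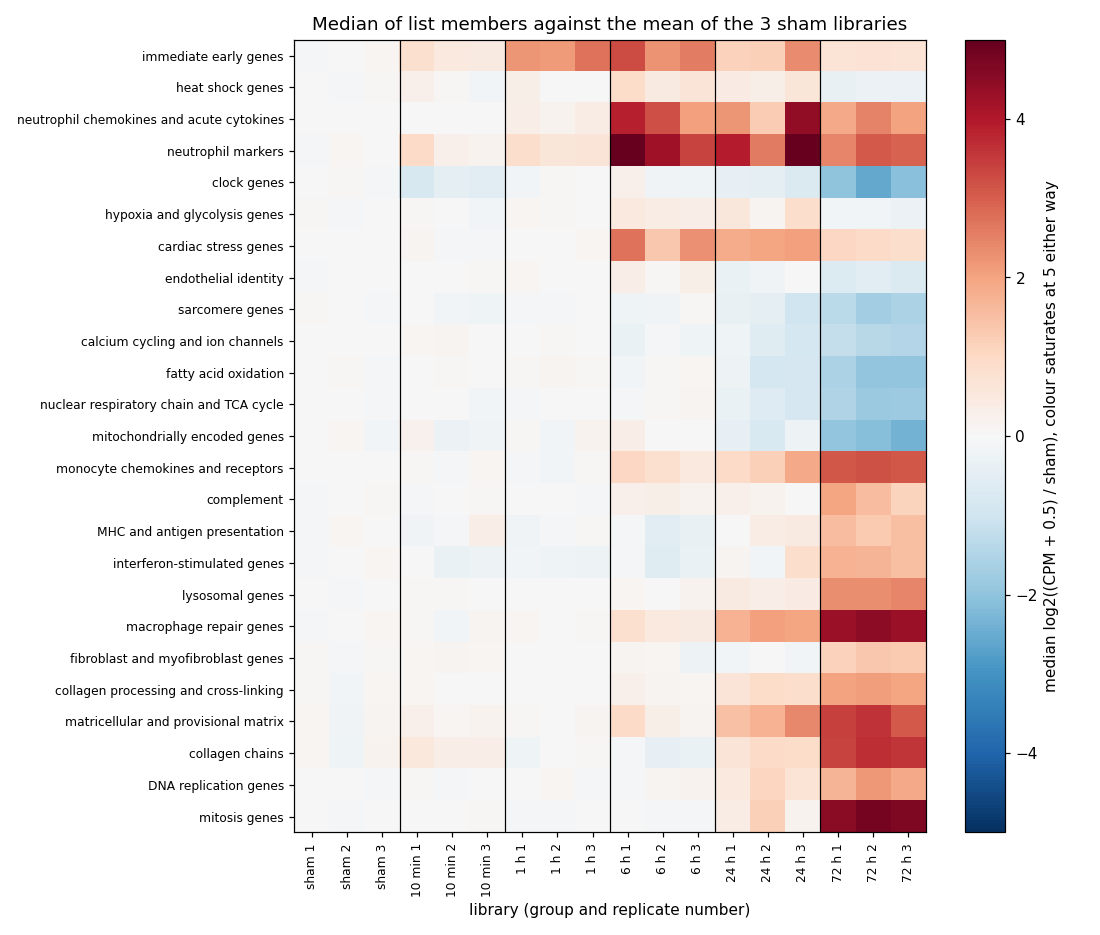
Colour gives, for each of 18 libraries in columns and 25 gene lists in rows, the median over the tested members of log2 of CPM plus 0.5, less the mean of the 3 sham libraries; red is above sham and blue below. The mitosis list stands at 4.50 to 4.79 and the fatty acid oxidation list at -1.97 to -1.59 in the 72 h libraries.

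The 24 h libraries place these differences between 6 h and 72 h, as list medians on that scale. The mitosis list was at 0.18 to 1.20 at 24 h and at 4.50 to 4.79 at 72 h. The collagen list was at 0.664 to 0.964 at 24 h and at 3.38 to 3.71 at 72 h, after -0.426 to -0.0884 at 6 h. The macrophage repair list had already reached 1.72 to 2.07 at 24 h and was at 4.31 to 4.49 at 72 h. Neutrophil markers were above sham at all 3 times, at 3.38 to 5.60 at 6 h, 2.58 to 6.20 at 24 h and 2.45 to 3.07 at 72 h, so the 72 h libraries still lay well above sham. Fatty acid oxidation genes were at -0.896 to -0.235 at 24 h and at -1.97 to -1.59 at 72 h. These medians are descriptions, and the steps from 6 h to 24 h and from 24 h to 72 h were not tested.

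Folding and clock genes gave mixed patterns. Among 14 genes of the unfolded protein response 6 were higher and 4 lower (median 0.205; 9 and 1 with library totals). The chaperone genes Sdf2l1 and Pdia4 were 5.08-fold and 4.59-fold higher and Pdia6 rose from 135, 129 and 124 to 327, 397 and 347 CPM, whereas Herpud1, of the degradation branch, fell from 148, 243 and 202 to 44.4, 40.1 and 43.3 CPM. Of 16 clock genes 13 were lower and 3 higher (median -2.16). Per2, a repressor arm gene, was at 48.5, 37.1 and 48.3 CPM at 6 h and 2.37, 1.61 and 2.74 CPM at 72 h, and Cry2 and Tef were 5.89-fold and 5.17-fold lower. Arntl, the activator BMAL1, was at 7.27, 3.83 and 5.86 and 24.1, 22.9 and 20 CPM, 3.95-fold higher (adjusted p = 0.000113). The labels give no time of day, so hour of killing and time after ligation cannot be told apart for these genes.

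Some of the largest changes lay outside the lists, when genes averaging 50 or more counts across the 6 libraries were ranked by size. That average spans both times, so a gene nearly absent at 6 h, such as Stra6l, could pass through its 72 h counts alone. The size and rank of such increases depend on how low counts are treated. Stra6l, a membrane receptor gene, had 0, 0 and 0 counts at 6 h. It reached 3.85, 4.26 and 6.78 CPM at 72 h, which against 3 counts per library is at least 30.9-fold higher. Cd5l, a macrophage-secreted protein gene, was at 0.0596, 0.144 and 0 CPM at 6 h and 18.3, 15.9 and 18.6 CPM at 72 h. Hmmr, Kif18b, Esco2, Pbk, Ankle1 and Brca1, which act in mitosis, chromatid cohesion or DNA repair, also stood among the 12 largest increases, with means of 13.5, 7.81, 5.4, 12.1, 6.54 and 8.51 CPM at 72 h against at most 0.0575 CPM at 6 h, the value of Hmmr. The remaining increase was Crct1, a cornified envelope gene, at a mean of 9.45 CPM. The 12 largest decreases, beside Retnlg, Lcn2, Hspa1a, Hspa1b and Pdk4, held Arc, an immediate early gene best known from neurons, at 84, 35.6 and 55.6 CPM at 6 h and 1.45, 1.34 and 1.3 CPM at 72 h. They also held the metallothionein Mt2 (29.3-fold lower), the alcohol dehydrogenase Adh1 (26.8-fold), angiotensinogen (Agt, 24.2-fold), the steroid sulfate transporter Slc10a6 (29.5-fold), Fam107a (26.6-fold) and Rab44 (24.4-fold). Agt was at a sham mean of 2.24 CPM, 45.1, 10.4 and 32.2 CPM at 6 h and 1.23, 1.43 and 0.955 CPM at 72 h.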

How the data were processed

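The series holds poly(A) RNA-seq of left ventricle, 3 mice in each of 6 groups. Per the submitters' processing notes, the authors used cutadapt 1.18, HISAT2 2.1.0 on mm10 (GRCm38) and featureCounts. Counting settings, including use of strand, are not given in the sources used here, so overlapping and antisense genes cannot be told apart. The values tested are the deposited counts per gene, as whole numbers, with no molecular identifiers, 20.3 to 23.7 M (mega) in each library compared. The authors' deposited FPKM values served only for 3 alternatives. In that table the columns of replicates 2 and 3 at 6 h each follow the other's counts, and both belong to the same group. Gene symbols came from GENCODE M21 (30489 of 30583 IDs matched). Genes were tested with edgeR 4.0.16 in R 4.3.3 by the quasi-likelihood test, with filterByExpr, TMM scaling and 1 mean for each group, over all 18 libraries, which share 1 estimate of spread (biological coefficient of variation 0.149). The contrast was 72 h less 6 h, and p-values were adjusted by Benjamini-Hochberg over 16311 genes (14272 were left out by the filter). CPM is counts per M of the TMM-scaled library. Replicate libraries differed by more than sampling noise, with 18.5 to 44.8 chi-square units per gene. The procedure was tested on simulated data in which few genes were changed, as many up as down. A shift as broad as that between these times was not simulated, so that run cannot judge the choice of scaling. The alternatives were other scalings, filters, the 6 libraries alone, a replicate block, DESeq2 1.42.0, limma 3.58.1 on FPKM, and leaving out each library of the 2 times.

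The members and the gene lists (43 lists, 602 genes) were chosen with earlier results of these data known. Genes were named by a rule: the 12 largest changes in each direction among called genes that averaged at least 50 counts and did not overlap between the times, and in each list the 3 smallest adjusted p-values plus the leading member called against the list's majority. Other genes were named after their values were seen: Acta2, Arg1, Ccl2, Ccn2, Ccnd1, Ccr2, Cdkn1a, Cenpf, Col1a1, Col4a1, Col4a2, Csf3r, Ctss, Dcn, E2f1, Fn1, Fos, Fosb, Il1b, Il6, Lox, Mcm3, Mki67, Mmp14, Mmp9, mt-Co1, Myh6, Nppa, Nppb, Pdgfra, Pecam1, Pgf, S100a8, Sele, Slc2a1, Slc8a1, Socs3, Spp1, Timd4, Timp1, Timp4 and Trem2. Promoter windows are from RefSeq for GRCm38.p6. A few genes that the rule or the lists hold are not reported here by name.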

Additional observations from a re-analysis of the deposited data

How the results depend on the processing

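Across 17 alternatives the number of genes called stayed within 1.5 times of 10272. The split by direction followed the scaling: with library totals 10087 genes were called higher and 1887 lower, with limma on log2(FPKM + 1) 9028 and 1703, with limma on log2(FPKM + 0.1) 8958 and 1711, and with limma on log2(FPKM + 1) and no filter 11486 and 1790. With library totals 6998 genes called both ways of scaling kept their direction and 787 had the opposite one. Leaving out each of the 6 libraries in turn gave 9384 to 9929 genes called, 4712 to 4938 higher, 4672 to 4991 lower and 4957 to 5322 changed at least 2-fold. Among the list medians that moved without 6 h replicate 1 were immediate early genes (to -1.34) and cardiac stress genes (to -1.03). Others were macrophage repair genes (to 3.88), interferon-stimulated genes (to 2.15), complement (to 1.79) and dead-cell uptake and resolution (to 0.907). Over 217 genes, those of the naming rule and those named besides it, 3632 results under the alternatives held 53 that lost the call, 35 that gained it and 29 that turned direction, and 13 genes lost the call in at least 1 alternative. The genes that turned, as log2 fold changes, were Col4a2 0.639, Csf1 0.219, Slc8a1 0.489 and Tgm2 0.0945 with library totals. With limma on log2(FPKM + 1), with and without the filter, they were Col4a2 0.613, Csf1 0.202, Slc8a1 0.505 and Tgm2 0.0954. With limma on log2(FPKM + 0.1) they were Col4a2 0.617, Csf1 0.213, Myl7 0.0887, Slc8a1 0.517 and Tgm2 0.0963, and with upper-quartile scaling Col4a2 0.0332. With 1 library left out, the genes that turned ran from -0.155 to 0.530 for Ccl2, -0.0596 to 0.372 for Col4a1, -0.292 to 0.0822 for Col4a2, -0.226 to 0.898 for Csf3r, -3.90 to 0.189 for Myl4, -5.75 to 4.21 for Myl7 and -0.0413 to 0.914 for Timd4. The cause of these turns was not tested, other than that scaling by library totals moved the median of all genes by 0.691. The replicate block took the calls from 10272 to 10209 (5085 higher and 5124 lower) and lost Myl7 among the named genes. Deviations of same-numbered libraries had correlations of -0.172, 0.0418 and 0.107, and not every library correlated best with its own number. With 3 libraries at each time, these few values cannot decide whether libraries of the same number belong together. With DESeq2 10227 genes were called, and without the filter on low counts 10066. Genes with few counts at 1 of the times, such as Ccnb1 at 6 h and Csf2 at 72 h, give large fitted changes whose size depends on the prior count.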

Other observations

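Further gene groups, chosen after their values were seen, are given as values, and some of their members are already named above. All 3 metallothioneins tested, small zinc- and copper-binding proteins, were lower at 72 h (median log2 fold change -4.57, and -3.88 with library totals). Mt1 was at 1607, 1662 and 1844 CPM in the 6 h libraries and 76.5, 67.2 and 71.3 CPM in the 72 h libraries, and its sham mean was 121 CPM. Of 13 genes known to respond to glucocorticoids 12 were lower and 0 higher (median -2.04; 10 lower and 0 higher, median -1.35, with library totals). They include Pdk4, Mt2 and Fam107a, which are among the 12 largest decreases above, and Mt2 is also 1 of the metallothioneins. Zbtb16, a transcription factor, went from 134, 159.8 and 138 to 7.54, 4.81 and 7.19 CPM and Fkbp5, a co-chaperone of the glucocorticoid receptor, from 182, 244 and 217 to 34.8, 39.7 and 35.5 CPM. Angptl4, an inhibitor of lipoprotein lipase, was at 110.1, 75.9 and 169 and 36.7, 42.4 and 50 CPM and was not called (adjusted p = 0.154), although no 72 h library reached a 6 h library. With only the 6 libraries compared Angptl4 was called lower (-1.44).

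The 2 families of ribosomal protein genes differed in direction. Of 77 mitochondrial ribosomal protein genes 70 were lower and 0 higher (median -0.785), and with library totals 22 were lower and 12 higher. Of 81 cytosolic ribosomal protein genes 49 were higher and 5 lower (median 0.311), and with library totals 77 were higher and 1 lower. Rpl3l, a paralog made in striated muscle, was lower by 2.51 on the log2 scale, from a mean of 273 CPM to 47.8 CPM. Of 38 kinesin motor genes 24 were higher and 8 lower, and with library totals 30 were higher and 1 lower. Kif2c and Kif11, which act on the mitotic spindle, had means of 0.113 and 0.765 CPM at 6 h and 13.3 and 24.3 CPM at 72 h, while the transport motor genes Kif1c and Kif13a went from 826 and 114 to 433 and 53.7 CPM, and the call of Kif1c was lost with library totals (-0.241). Among 14 genes of DNA methylation 6 were higher and 4 lower, or 9 and 3 with library totals. Uhrf1, which guides the maintenance methyltransferase at replication, rose from a mean of 1.81 to 31.5 CPM and Dnmt1, that methyltransferase, from 23.1 to 59 CPM. Mbd1, which binds methylated DNA, fell from a mean of 98.1 to 36.7 CPM.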
